A study of Mus musculus with 2 samples.

Results

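The endosomal sorting complexes required for transport (ESCRT) were followed gene by gene through thymocytes with and without a Cdc42 deletion. The 30 members were taken from a list of ESCRT-0, ESCRT-I, ESCRT-II, ESCRT-III and Vps4 genes and of the Bro1 and ALG-2 adaptors that work with them, and were kept where at least 20 unique molecular identifiers (UMIs) were counted in the whole matrix. All 30 of the 30 listed genes met this, among 20282 genes measured. Whole thymus was taken at 6 weeks of age from 5 Cdc42f/f mice (WT) and from 5 Cdc42f/f CD4Cre littermates (KO), and each genotype gave 1 pooled library of 3′ transcript ends from single cells in droplets. Both genotypes carry the floxed Cdc42 alleles and differ in the Cre transgene, which the CD4 promoter drives. Deletion is therefore expected from the CD4+CD8+ double-positive (DP) stage on and not in earlier thymocytes or in cells that never express CD4. The labels name no treatment for either group. With 1 pooled library per condition there was no replicate, so that no test between WT and KO was possible and every interval below covers counting error only.

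ESCRT proteins bend and cut membranes from the inside of a neck. ESCRT-0 gathers ubiquitin-tagged receptors on endosomes, ESCRT-I and ESCRT-II pass them on and begin the bud, ESCRT-III polymerizes into the filaments that close the neck, and the ATPase Vps4 takes the filaments apart. The same late factors act in the release of vesicles and viruses from the plasma membrane, in the last cut of cell division and in repair of the nuclear envelope, and in T cells they are known for turnover of the T cell receptor and its release in vesicles at the synapse.

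The WT-labelled library held 6115 cells and 29706197 UMIs and the KO-labelled library 7568 cells and 37920214 UMIs, with medians of 3192 and 3401 UMIs per cell. The deposited clusters were grouped by their marker genes. The 5 clusters with the most Rag1, a recombinase gene of DP cells, held 3636 WT and 4641 KO cells and are called the Rag1 clusters. The Cd5 clusters, marked by a gene switched on by receptor signalling, held 535 and 843 cells, the single-positive (SP) cluster marked by Itm2a held 479 and 316, the mature SP cluster marked by Ms4a4b held 332 and 396, and the 4 clusters with the most Top2a, called proliferating, held 533 and 557. The 9 listed DP markers summed to 11767 and 11850 UMIs per 1000000 UMIs of the group and library (CPM) in the Rag1 clusters against 1336 and 1686 in the Ms4a4b cluster, and the 8 mature SP markers to 183 and 226 against 4323 and 5985, so that the names of these 2 groups fit their markers. The Itm2a cluster was less sharply marked. Its 6 signalled DP markers summed to 2830 in WT and 3704 in KO and its 5 SP markers to 3247 and 3609, with Itm2a in both lists, and its mature SP markers to 1592 and 1283, against 3605 and 3100, 2656 and 2389, and 332 and 372 in the Cd5 clusters. The targeted gene did not check the labels: Cdc42 stood at 447 CPM in WT and 581 CPM in KO for the Ms4a4b cluster, and at 358 and 320 CPM in the Rag1 clusters. Counts of 3′ ends do not separate transcripts that lack the deleted exon from intact ones, and every direction below rests on the labels. The cell names carry Cdc45 where the labels have Cdc42. The same barcode occurred in both libraries for 17 barcodes, and the alternatives run without those cells are given with the other settings.

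Levels are given in CPM. In a 3′ assay 1 UMI stands for 1 transcript end whatever the transcript's length, so that levels of different genes need no scaling by length. Overlaps with other genes, given below for some members, may still lower a count, so that levels of different genes compare only roughly. Over all 30 genes the summed level in these 5 groups was highest in the Rag1 clusters, with 2278 (interval 2250 to 2307) in WT and 2355 (2330 to 2379) in KO, and similar in the Cd5 clusters with 2194 and 2246. It was lower in the SP clusters, with 1782 in WT and 2059 in KO for Itm2a and 1788 and 2067 for Ms4a4b, and in the proliferating clusters with 1769 and 1777. The order from DP to SP was the same in both libraries, while the step was smaller in the KO-labelled one. On the log2 scale the sum over the Rag1 clusters was -0.35 in WT and -0.19 in KO for Itm2a. The median of all genes was -0.20 and -0.07 there. For Ms4a4b the sum was at -0.35 and -0.19 against -0.41 and -0.20, and for the proliferating clusters at -0.36 and -0.41 against -0.37 and -0.39. In these latter 2 groups the fall was thus near that of all genes, and the smaller KO step in the SP clusters was shared by all genes. ESCRT-III gave the largest part in all 5 groups, from 646 of the total in the WT proliferating clusters to 1013 in the KO Rag1 clusters, and ESCRT-0 the smallest, from 42.9 to 75.6.

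**Figure D1:**
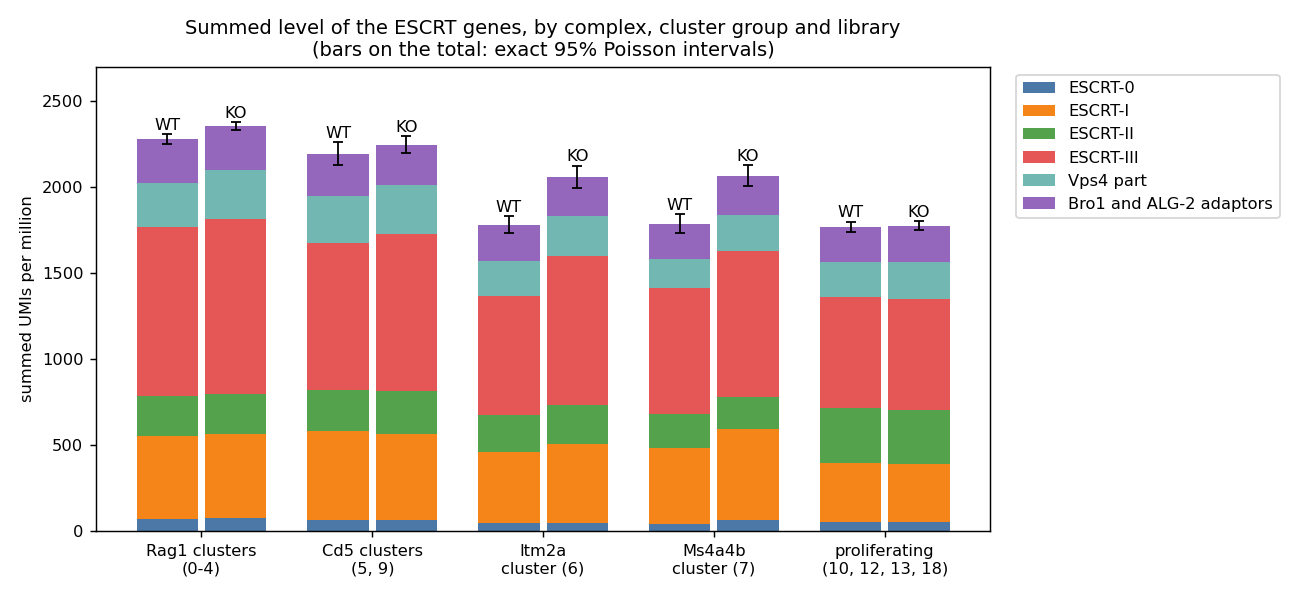
Summed level (CPM) of the 30 ESCRT genes (vertical axis) for each cluster group and library, stacked by complex, with exact 95% Poisson intervals on the totals. The Rag1 and Cd5 columns stand at 2194 or more and the 3 other groups between 1769 and 2067, and the KO columns exceed the WT columns most in the Itm2a and Ms4a4b clusters.

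The KO over WT ratio of the summed level was 0.05 on the log2 scale in the Rag1 clusters (interval 0.02 to 0.07), 0.03 in the Cd5 clusters (-0.02 to 0.09), 0.21 in the Itm2a cluster (0.15 to 0.27), 0.21 in the Ms4a4b cluster (0.15 to 0.27) and 0.01 in the proliferating clusters (-0.03 to 0.04). These 2 SP values have to be read against the median of all genes with at least 20 UMIs, which was itself 0.16 (Itm2a) and 0.24 (Ms4a4b). Relative to that median the ESCRT sum stood at 0.05 and -0.03. Ribosomal protein genes took 24.05% of the UMIs of the Itm2a cluster in WT and 17.6% in KO, and 30.8% and 21.9% in the Ms4a4b cluster, and the median UMIs per cell were 5714 and 5363, and 6737.5 and 5032. Under the trimmed mean of M-values (TMM), which brings the all-gene median from 0.16 to -0.01 and from 0.24 to -0.02, the sums came to 0.04 and -0.05, so that the direction in the Ms4a4b cluster turned with the scaling. The part of the ribosomal share and of depth in the SP values was not tested further.

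Gene by gene, the members lay around the median of all genes in each group. In the Rag1 clusters 22 of 30 were above 0 and 15 above the all-gene median, with a median of 0.05 against 0.05 for 12983 genes. The medians were 0.02 in the Cd5, 0.19 in the Itm2a, 0.24 in the Ms4a4b and -0.00 in the proliferating clusters, which is -0.02, 0.04, -0.00 and -0.03 relative to all genes. A member was counted as past the fold where its ratio was at least 1.5. In the Rag1 clusters 1 member was past it upwards, where 5.80% of all genes were, and 0 downwards, where 2.57% were. In the Cd5 clusters 0 were higher (7.02% of all genes) and 1 was lower (3.56%), in the Itm2a cluster 0 were higher (11.3%) and 0 lower (4.95%), and in the proliferating clusters 0 were higher (5.28%) and 0 lower (3.40%). The Ms4a4b cluster held 6 higher members (21.0% of all genes) and 1 lower (5.55%). The share of members past the fold was thus near the share of all genes in that cluster, and with TMM factors the 6 higher members came down to 1 while the share of all genes came down to 9.48%. At a lower fold of 5/4, members higher and lower in KO numbered 2 and 1 in the Rag1 (14.8% and 6.51% of all genes), 1 and 1 in the Cd5 (18.2% and 10.2%), 9 and 1 in the Itm2a (30% and 11.4%), 12 and 2 in the Ms4a4b (42.6% and 11.5%) and 1 and 1 in the proliferating clusters (13.3% and 8.23%).

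**Figure D2:**
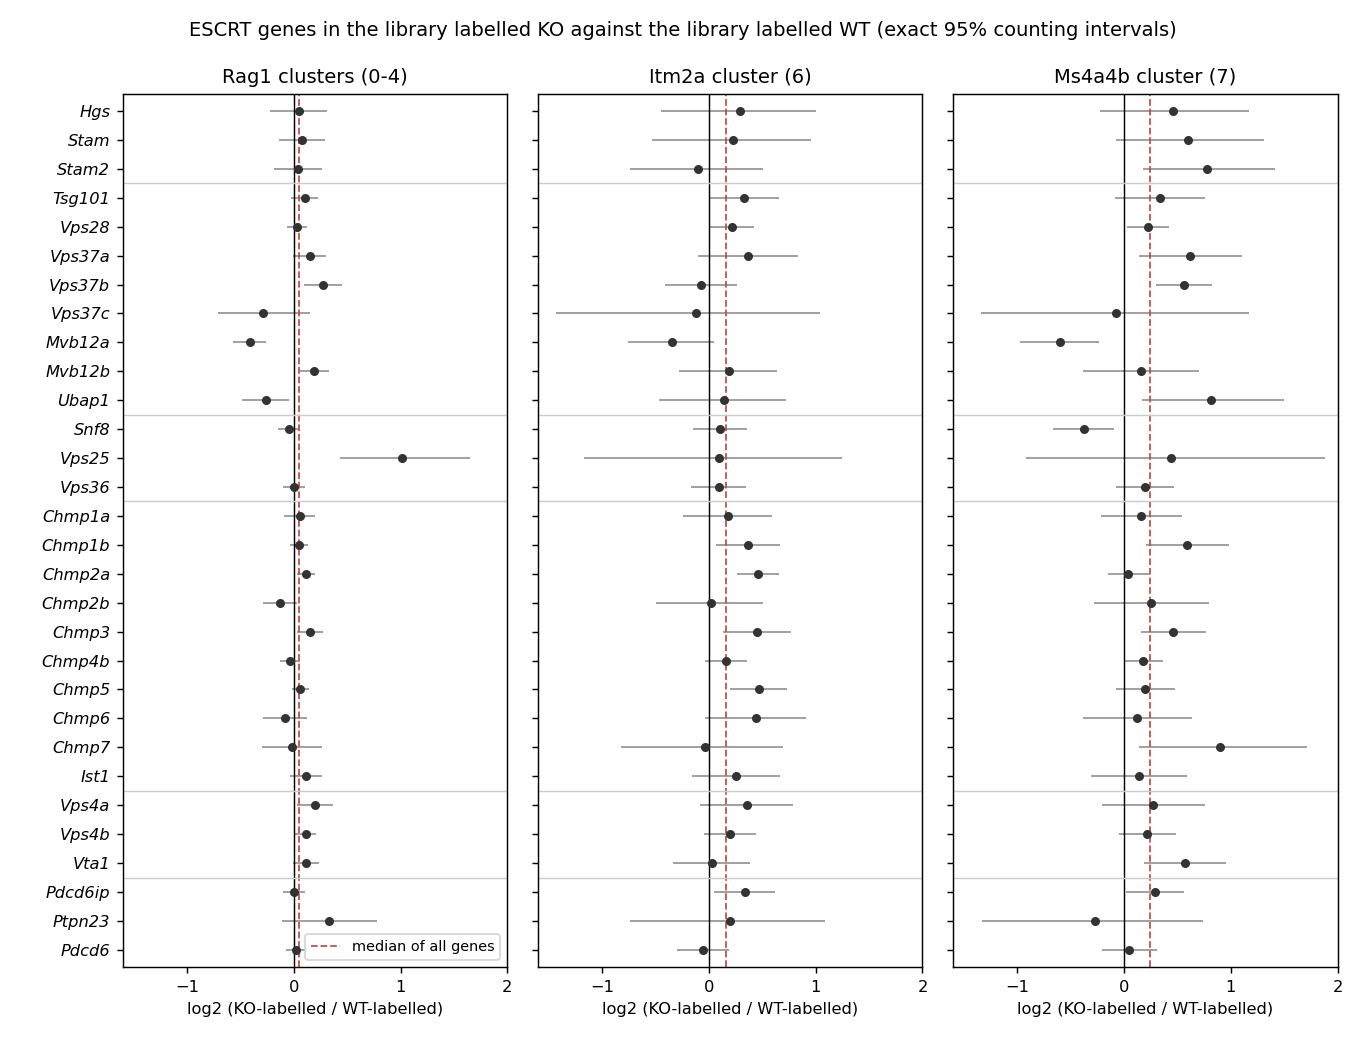
The log2 ratio of the library labelled KO over that labelled WT (horizontal axis) for each of the 30 ESCRT genes in the Rag1, Itm2a and Ms4a4b clusters, with exact 95% counting intervals. Most intervals hold 0, Vps25 lies farthest right in the Rag1 clusters at 1.01, and Mvb12a lies left of 0 in each group drawn, down to -0.60 in the Ms4a4b cluster.

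Of the ESCRT-0 genes, Hgs encodes the ubiquitin-binding Hrs and Stam and Stam2 its paired partners. In the Rag1 clusters their levels were 18.4, 28.3 and 25.9 in WT and 19.0, 29.9 and 26.7 in KO, differences within the counting intervals. Summed ESCRT-0 was lower in the WT Ms4a4b cluster, with 42.9 (from 100 UMIs), and 66.6 in KO (from 151 UMIs), a log2 ratio of 0.63 (0.26 to 1.01), or 0.39 above the median of all genes. The 3 genes were all higher in KO there. Stam2 stood at 15.9 in WT and 27.4 in KO (log2 ratio 0.78, 0.17 to 1.41), Stam at 13.3 and 20.3 (0.60, -0.08 to 1.31) and Hgs at 13.7 and 19.0 (0.46, -0.23 to 1.17). Only the interval of Stam2 lay above 0, and its lower end was under the median of all genes. Hgs has 2 overlapping gene models in the annotation and an exon of Stam2 overlaps the predicted gene Gm13548 on the same strand, so that their counts may be split. From the Rag1 clusters to the Itm2a cluster, Stam was lower in both libraries, by log2 ratios of -1.13 in WT and -0.98 in KO.

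ESCRT-I is a rod of Tsg101, Vps28, a Vps37 and an Mvb12 or Ubap1 subunit, and its last 2 places are filled by alternative paralogues. Vps28, the subunit that binds ESCRT-II, was the most abundant, with 139 in WT and 142 in KO in the Rag1 clusters and 176 and 205 in the Ms4a4b cluster. Tsg101, which binds ubiquitin and the late-domain peptides of budding viruses, went the other way, with 79.3 and 85.1 in the Rag1, 106 and 92.1 in the Cd5, 59.6 and 74.9 in the Itm2a and 37.8 and 47.6 in the Ms4a4b clusters. Its share of the ESCRT-I UMIs was 16.5% and 17.4% in the Rag1 clusters and 8.6% and 9.1% in the Ms4a4b cluster.

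The Vps37 paralogues exchanged order from the Rag1 clusters to the Cd5 and SP clusters. Vps37b, on chromosome 5 from 124004641 to 124032270, stood at 39.3 in WT and 47.5 in KO in the Rag1 clusters, at 66.5 and 68.7 in the Cd5 clusters, at 66.5 and 63.2 in the Itm2a cluster and at 88.0 and 130 in the Ms4a4b cluster. It was the 1 member of 30 that was at least 1.5-fold higher in the Ms4a4b than in the Rag1 clusters in both libraries, with log2 ratios of 1.17 (0.92 to 1.41) and 1.45 (1.251 to 1.65), where 11.7% of all genes were. With totals free of ribosomal and mitochondrial genes, with TMM and with DESeq2 size factors, Vps28 and Chmp4b passed that fold too (15.1%, 14.5% and 14.7% of all genes). Vps37a ran down, from 52.0 and 57.7 in the Rag1 clusters to 27.0 and 41.5 in the Ms4a4b cluster. Vps37b over Vps37a was therefore 0.756 (0.665 to 0.858) in WT and 0.823 (0.745 to 0.909) in KO in the Rag1 clusters, and 3.25 (2.44 to 4.39) and 3.13 (2.47 to 3.99) in the Ms4a4b cluster. In the Cd5 clusters this ratio was already 1.35 (1.03 to 1.78) in WT and 1.27 (1.04 to 1.55) in KO. The paralogue that was lower in the Rag1 clusters was the higher one in the Ms4a4b cluster, to a like extent in both libraries. Both genes were low in the proliferating clusters, with 22.6 and 19.3 for Vps37b and 21.8 and 22.3 for Vps37a. Vps37c stayed under 8 CPM in all 5 groups, from 4.74 to 7.91. Within the Ms4a4b cluster Vps37b had a KO over WT log2 ratio of 0.56 (0.30 to 0.82) and Vps37a of 0.61 (0.14 to 1.10), against 0.24 for all genes. The mature SP markers were also higher there in KO, as given above, and so were the 5 gamma-delta T markers, all 5 detected in both libraries, with 206 in WT and 386 in KO. The part of either in the ratios of this cluster was not tested. Exons of Vps37a and Vps37b overlap Mtmr7 and Hip1r on the opposite strand, and whether the counting used strand is not stated.

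**Figure D3:**
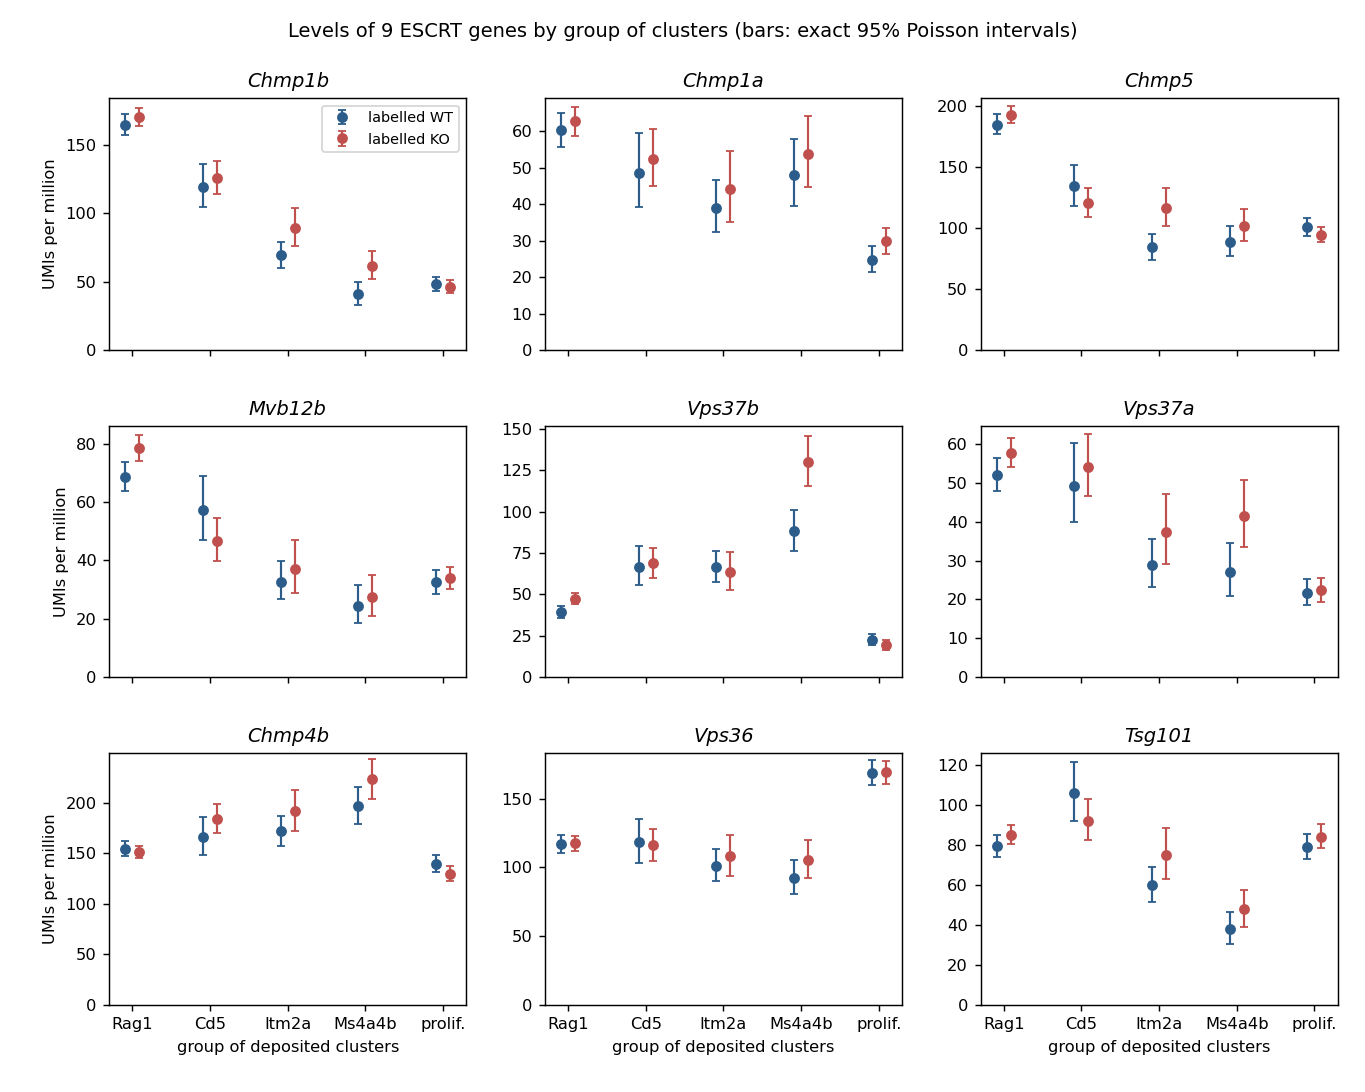
CPM (vertical axes, from 0) of 9 ESCRT genes in the 5 cluster groups for the WT-labelled and KO-labelled libraries, with exact 95% Poisson intervals. Vps37b is highest in the Ms4a4b cluster (88.0 and 130) and Chmp1b is highest in the Rag1 clusters (164 and 170). The intervals of the libraries do not overlap for Vps37b in the Ms4a4b cluster. The same holds for some other points, such as Chmp1b in the Ms4a4b (40.8 and 61.3) and Chmp5 in the Itm2a cluster (84.2 and 116).

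Mvb12a and Mvb12b, alternative subunits at the other end of the rod, also parted. Mvb12b was at 68.5 in WT and 78.4 in KO in the Rag1 clusters and at 24.5 and 27.4 in the Ms4a4b cluster, log2 ratios of -1.47 (-1.90 to -1.09) and -1.51 (-1.91 to -1.15). Mvb12a did not follow, with 64.7 and 48.6 in the Rag1 and 69.1 and 45.4 in the Ms4a4b cluster. The ratio of Mvb12b to Mvb12a was 1.06 in WT and 1.61 in KO in the Rag1 clusters and 0.354 and 0.602 in the Ms4a4b cluster. Its intervals did not overlap between the libraries in the Rag1 clusters, at 0.953 to 1.17 and 1.47 to 1.77.

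Mvb12a was the member with the steadiest difference between the libraries. Over the whole libraries it stood at 61.8 in WT (1835 UMIs) and 48.0 in KO (1821 UMIs), a log2 ratio of -0.36 (-0.46 to -0.27) against 0.08 for the median of all genes. By cluster group the KO over WT ratios were -0.41 (-0.56 to -0.26) in the Rag1, 0.03 (-0.36 to 0.42) in the Cd5, -0.34 (-0.76 to 0.05) in the Itm2a, -0.60 (-0.98 to -0.24) in the Ms4a4b and -0.42 (-0.62 to -0.23) in the proliferating clusters. Of the 16 deposited clusters in which it had at least 20 UMIs it was lower in KO in 15, with an interval below 0 in 6, and higher in cluster 5 alone, by 0.12 (-0.35 to 0.62). The lowest ratio, -0.98, was that of cluster 15, marked by Cd74. Its makeup differed between the libraries, with B cell markers of 4874 in WT and 40904 in KO. Among the 15 was also cluster 14, marked by Myl10, with 86.8 in WT (63.5 to 116) and 69.7 in KO (54.2 to 88.1). Its 5 markers of double-negative, earlier thymocytes summed to 1536 and 2122, and its 5 gamma-delta T markers to 2243 and 1974. Deletion is not expected in earlier thymocytes or in cells that never express CD4. The part of the deletion in the Mvb12a ratio was not tested and cannot be told from a library difference. In cluster 8, with 6 and 12 UMIs, Mvb12a stood at 20.7 in WT and 23.4 in KO. Among the 18 members with at least 16 clusters of 20 UMIs or more, Mvb12a was the only one that was lower in all but at most 1, as were 1.40% of 4277 genes. In that way 0 members were higher, where 2.95% of genes were. Of 20 members with enough UMIs in each of clusters 0 to 14, 0 were lower in all of them (1.06% of 5088 genes) and 0 higher in all (1.40%). The pattern was looked for after the values had been seen. Of 12 alternative settings, none turned its direction in the Ms4a4b cluster, where it ran from -0.86 to -0.57.

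**Figure D4:**
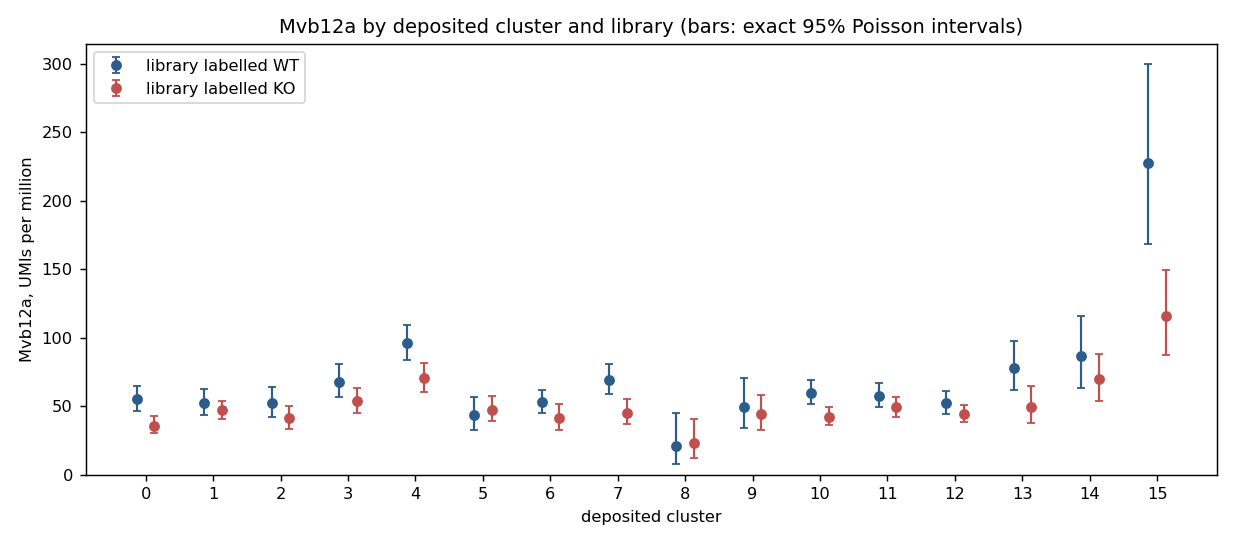
CPM of Mvb12a (vertical axis) in the deposited clusters up to number 15 of the WT-labelled and KO-labelled libraries, with exact 95% Poisson intervals. The WT point lies above the KO point except in clusters 5 and 8. In cluster 8 Mvb12a had 6 and 12 UMIs and stood at 20.7 in WT and 23.4 in KO. Of the 16 clusters with at least 20 UMIs, Mvb12a was lower in KO in 15. Those 16 leave out cluster 8 and hold cluster 18, which is not drawn. The Cd74 cluster, number 15, is highest with 227 and 116.

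The gene lies on chromosome 8 of GRCm38 from 71542922 to 71548085 on the plus strand, with 7 annotated transcripts of 2 to 9 exons. No exon of another measured gene overlaps its exons. Its promoter is shown because it is the member whose level differed in most clusters. The 300 bases around its RefSeq start (GRCm38.p6, chr8:71542680-71542979, plus strand, 250 bases before the start and 50 from it on) read, with the letters TGTAGTC, which were searched on both strands and hold the core of a ZNF143-type site, in capitals:
Mvb12a: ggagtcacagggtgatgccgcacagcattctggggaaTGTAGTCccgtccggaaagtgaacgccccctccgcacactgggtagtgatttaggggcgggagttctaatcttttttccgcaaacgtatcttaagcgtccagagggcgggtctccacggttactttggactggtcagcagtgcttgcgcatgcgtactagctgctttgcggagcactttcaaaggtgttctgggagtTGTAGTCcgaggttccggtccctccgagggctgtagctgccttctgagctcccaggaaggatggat
The letters occurred at bases 38 and 235 of this window, in 3 of the 25 promoters matched for 23 of the members, those of Mvb12a, Chmp4b and Pdcd6ip, and in 3.23% of 32851 promoters of the same length. Of the 13 genes within 100 kb with enough UMIs, 7 were lower in KO over the whole libraries. The 13 ratios ran from -0.99 (-1.48 to -0.51) for Tmem221 to 0.81 (-0.60 to 2.54) for Unc13a, the latter from 6 and 14 UMIs. Tmem221, the measured gene next after Mvb12a, was at -1.12 in the Rag1 clusters (48 and 31 UMIs) and -2.04 in the proliferating clusters (18 and 5 UMIs). Bst2 encodes an interferon-induced membrane protein, and its gene ends 5465 bases before that of Mvb12a. Its ratio was -0.21 (-0.28 to -0.15) over the whole libraries. By group it was -0.27 in the Rag1, 0.05 in the Cd5, -0.97 in the Itm2a, -0.50 in the Ms4a4b and 0.21 in the proliferating clusters. Bst2 was lower with Mvb12a in 3 of these groups and not in the proliferating clusters. The part of the region in the Mvb12a ratio was not tested.

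Because Mvb12a was highest in the Cd74 cluster, the markers of other cells were read beside it. The 7 dendritic markers summed to 6.63 in WT and 6.83 in KO in the Rag1 clusters, with Siglech at 0 and 2 UMIs, and to 15.9 and 11.9 in the Ms4a4b cluster. In the proliferating clusters they summed to 236 with 7 of 7 detected in WT and to 22.1 with 6 of 7 in KO, and the 3 erythroid markers to 199 and 0.216. The part of either in the Mvb12a ratio of those clusters was not tested, and in clusters 10, 12, 13 and 18 taken singly the ratio was -0.50, -0.23, -0.65 and -0.10. The 7 macrophage markers summed to 47.8 and 43.3 in the Rag1 clusters, to 4.26 and 27.1 in the Itm2a cluster, to 7.30 and 37.1 in the Ms4a4b cluster and to 24.5 and 19.1 in the proliferating clusters. The 6 B cell markers summed to 417 and 390 in the Rag1 clusters, mostly from Ighm with 357 and 328, while Ms4a1 had 1 and 2 UMIs. They summed to 221 and 225 in the Ms4a4b cluster and to 381 and 465 in the proliferating clusters. The erythroid markers summed to 13.3 and 0.846 in the Rag1 and to 7.30 and 0.882 in the Ms4a4b cluster, and their part in the Mvb12a ratios there was not tested.

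Ubap1, which takes the place of Mvb12 in an ESCRT-I that sorts endosomal cargo, had opposite signs in DP and mature SP cells. It stood at 30 in WT and 24.99 in KO in the Rag1 clusters, a log2 ratio of -0.26 (-0.48 to -0.05), and at 13.7 and 24.3 in the Ms4a4b cluster, 0.81 (0.17 to 1.5). The latter rests on 32 and 55 UMIs, and once the all-gene median is taken off its interval was -0.07 to 1.26 and held 0. The difference between the ratios was not tested.

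ESCRT-II joins Snf8, Vps36 and more than 1 copy of Vps25. Snf8 and Vps36 were expressed alike, with 114 and 117 in WT and 111 and 117 in KO in the Rag1 clusters, whereas Vps25 had 2.94 and 5.99. In the annotation the exons of Vps25 overlap Ramp2 on the same strand, and what the overlap took from its count was not tested. Exons of Vps28, the most abundant ESCRT-I gene, overlap Tonsl in the same way. In the proliferating clusters both Vps36 and Snf8 were higher than in the Rag1 clusters, against the course of the other complexes. Vps36 stood at 169 in both libraries there, with log2 ratios of 0.53 (0.42 to 0.64) in WT and 0.53 (0.43 to 0.62) in KO over the Rag1 clusters, and Snf8 at 144 and 138, with 0.33 (0.21 to 0.45) and 0.31 (0.20 to 0.42), where the median of all genes was -0.37 and -0.39. Neither gene reached the fold of 1.5 on the totals, and both passed it with TMM factors, with 0.82 in both libraries for Vps36 and 0.62 and 0.61 for Snf8, and with DESeq2 size factors. Within that group Vps36 was highest in clusters 10 and 13, with 194 and 225 in WT and 196 and 202 in KO, and stood at 125 and 140 in cluster 12. Summed ESCRT-II was 317 and 310 against 234 and 234 in the Rag1 clusters, the only complex of the 6 with a higher sum in the proliferating clusters.

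Between the libraries, Vps25 was the 1 member past the fold in the Rag1 clusters, from 32 UMIs in WT and 92 in KO (2.94 and 5.99 CPM, log2 ratio 1.01, 0.43 to 1.65). Most of it came from cluster 0, with 5 and 31 UMIs, and cluster 1, with 6 and 27, while cluster 3 had 9 and 13 UMIs, a ratio of 0.01. In cluster 10 it went the other way, with 16 and 7 UMIs, -1.34 (-2.91 in its lower bound). In the Ms4a4b cluster Snf8 was lower in KO, at 101 in WT and 77.6 in KO (-0.38, -0.67 to -0.09, and -0.62 relative to all genes), and Vps36 was at 92.3 and 105 (0.19, -0.08 to 0.46).

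The ESCRT-III genes encode the filament subunits, of which Chmp6 links to ESCRT-II, Chmp4b forms the main filament, Chmp3 and the Chmp2 proteins cap and reshape it, and Chmp1a, Chmp1b and Ist1 act late and recruit enzymes. In the Rag1 clusters Chmp5 (185 in WT and 193 in KO), Chmp2a (169 and 183), Chmp1b (164 and 170) and Chmp4b (155 and 151) led, and Chmp7, which acts at the nuclear envelope, was lowest with 16.9 and 16.7. These genes then took separate courses. Chmp2a, with 192 and 197, and Chmp4b, with 197 and 223, were at or above these levels in the Ms4a4b cluster, while Chmp1b and Chmp5 were lower.

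Chmp1b, a gene of a single exon, was at 164 in WT and 170 in KO in the Rag1 clusters, at 119 and 126 in the Cd5 clusters, at 69.1 and 89.3 in the Itm2a cluster, at 40.8 and 61.3 in the Ms4a4b cluster and at 48.2 and 46.2 in the proliferating clusters. The log2 ratio of Ms4a4b over Rag1 was -2.0 (-2.32 to -1.71) in WT and -1.47 (-1.73 to -1.23) in KO, the lowest of the 30 members in WT and above that of Mvb12b alone in KO. Its paralogue Chmp1a differed less, from 60.4 and 62.7 in the Rag1 clusters to 48.1 and 53.8 in the Ms4a4b cluster, so that Chmp1b over Chmp1a was 2.72 and 2.71 in the former and 0.848 (0.638 to 1.12) and 1.14 (0.887 to 1.47) in the latter. A like parting was seen for Chmp2a and Chmp2b, whose ratio was 3.18 and 3.77 in the Rag1 and 7.96 and 6.86 in the Ms4a4b cluster, since Chmp2b was at 53.1 and 48.6 and then at 24.05 and 28.7.

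Chmp5, the regulator that binds Vta1, had 185 and 193 in the Rag1, 135 and 121 in the Cd5, 84.2 and 116 in the Itm2a and 88.9 and 102 in the Ms4a4b clusters. It lies on chromosome 4 from 40948407 to 40965303 on the plus strand, in 8 exons. Its promoter is shown as that of a member lower in the SP and proliferating groups which holds the core letters bound by ETS factors, a family with many members in T cells. The 300 bases around its RefSeq start (GRCm38.p6, chr4:40948303-40948602, plus strand, same window) read, with the ETS core CCGGAAG, searched on both strands, in capitals:
Chmp5: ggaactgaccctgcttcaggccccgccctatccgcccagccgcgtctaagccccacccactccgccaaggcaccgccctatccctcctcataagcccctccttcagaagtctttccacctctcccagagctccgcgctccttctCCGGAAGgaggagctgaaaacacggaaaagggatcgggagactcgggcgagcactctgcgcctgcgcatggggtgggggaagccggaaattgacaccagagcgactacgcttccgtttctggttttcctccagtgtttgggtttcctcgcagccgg
These letters occurred in 8 of the 25 member promoters (32.0%), those of Chmp1a, Chmp3, Chmp5, Pdcd6ip, Ptpn23, Tsg101, Vps25 and Vta1, and in 8.86% of all 32851. The 8 genes do not share a course, since the log2 ratios of the Ms4a4b over the Rag1 clusters were -0.38 and -0.09 for Pdcd6ip and -0.32 and -0.22 for Chmp1a against -1.06 and -0.83 for Tsg101.

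Between the libraries, summed ESCRT-III in the Itm2a cluster was 692 in WT and 868 in KO, a log2 ratio of 0.33 (0.23 to 0.42) or 0.17 above the median of all genes. The members furthest up there were Chmp5 (0.47, 0.20 to 0.73), Chmp2a (157 and 216, 0.46, 0.27 to 0.65), Chmp3 (60.3 and 82.4, 0.45, 0.13 to 0.77) and Chmp6 (27.9 and 37.7, 0.44, -0.04 to 0.91). All 4 were under the fold of 1.5. The signalled DP markers were higher and the mature SP markers lower in KO in this cluster, as given above, and the gamma-delta T markers stood at 36.4 and 69.1; their part in these ratios was not tested. In the Ms4a4b cluster summed ESCRT-III was 731 and 847 (0.21, 0.12 to 0.31), which is -0.03 relative to all genes. Chmp7 was past the fold there, with 9.88 and 18.5 from 23 and 42 UMIs (0.89, 0.14 to 1.71), and so was Chmp1b (0.59, 0.20 to 0.98), whereas Chmp2a was at 0.04 (-0.15 to 0.23).

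The Vps4 part holds the ATPases Vps4a and Vps4b and their activator Vta1. Vps4b was the more abundant in each group, with 133 and 144 against 41.9 and 48.1 for Vps4a in the Rag1 clusters. The ratio of Vps4b to Vps4a was 3.18 (2.86 to 3.54) in WT and 2.99 (2.75 to 3.26) in KO there, and 1.82 (1.59 to 2.08) and 2.22 (1.97 to 2.51) in the proliferating clusters, where Vps4b was down to 83.7 and 96.2 and Vps4a at 46.1 and 43.3. Dividing cells thus held relatively more Vps4a in both libraries. Vta1 was at 85.1 and 92.2 in the Rag1 and 41.7 and 61.8 in the Ms4a4b cluster, with a KO over WT log2 ratio of 0.57 (0.18 to 0.96) in the latter. Vps4a had the highest ratio of the Cd5 clusters, 0.40 (-0.02 to 0.83), with an interval that held 0.

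Of the adaptors, Pdcd6ip (Alix) recruits ESCRT-III directly to vesicle and division sites, Pdcd6 (ALG-2) brings it there with calcium, and Ptpn23 (HD-PTP) sorts endosomal cargo. Pdcd6 was even over the groups, from 110 in the WT Ms4a4b to 131 in the KO Rag1 clusters, and its KO over WT ratios lay between -0.05 and 0.05. Pdcd6ip had 117 in both libraries in the Rag1 clusters and 89.8 and 110 in the Ms4a4b cluster. Ptpn23 was counted between 6.26 and 11.5 CPM. It was the 1 member past the fold in the Cd5 clusters, lower in KO with 22 and 26 UMIs (11.5 and 7.60 CPM, -0.61, -1.48 to 0.29), an interval that held 0.

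Across groups, the lower members outnumbered the higher ones. Counted where the ratio over the Rag1 clusters was at least 1.5 in the same direction in both libraries, 0 members were higher in the Cd5 clusters (8.10% of all genes) and 0 lower (10.4%). In the Itm2a cluster 0 were higher (13.5%) and 7 lower (18.8%), namely Stam, Vps37a, Mvb12b, Chmp1b, Chmp2b, Chmp5 and Vta1. In the Ms4a4b cluster 1 was higher (11.7%) and 6 lower (23.3%), namely Tsg101, Mvb12b, Chmp1b, Chmp2b, Chmp5 and Ist1. In the proliferating clusters 0 were higher (16.4%) and 10 lower (36.2%), which were Stam, Vps37a, Vps37b, Mvb12b, Ubap1, Chmp1a, Chmp1b, Chmp2b, Chmp5 and Ist1. These last counts moved with the scaling, to 2 higher (23.0%) and 6 lower (24.3%) with TMM, where Stam, Vps37b, Ubap1 and Ist1 left the list, and to 2 (23.9%) and 5 (23.1%) with DESeq2, where Chmp5 left it too. On the totals Mvb12b, Chmp1b, Chmp2b and Chmp5 stood in all 3 of these lists. The shares of members were near or under those of all genes in the proliferating and Ms4a4b clusters, and at the lower fold of 5/4 members higher and lower were 1 and 3 in the Cd5 (14.9% and 19.6% of all genes), 2 and 9 in the Itm2a (20.2% and 29.8%), 3 and 11 in the Ms4a4b (16.2% and 36.9%) and 1 and 13 in the proliferating clusters (22.2% and 48.0%). The median of all genes was -0.41 and -0.20 in the Ms4a4b cluster and -0.37 and -0.39 in the proliferating clusters. The clusters were made from the same cells and genes, so that these differences are a description.

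**Figure D5:**
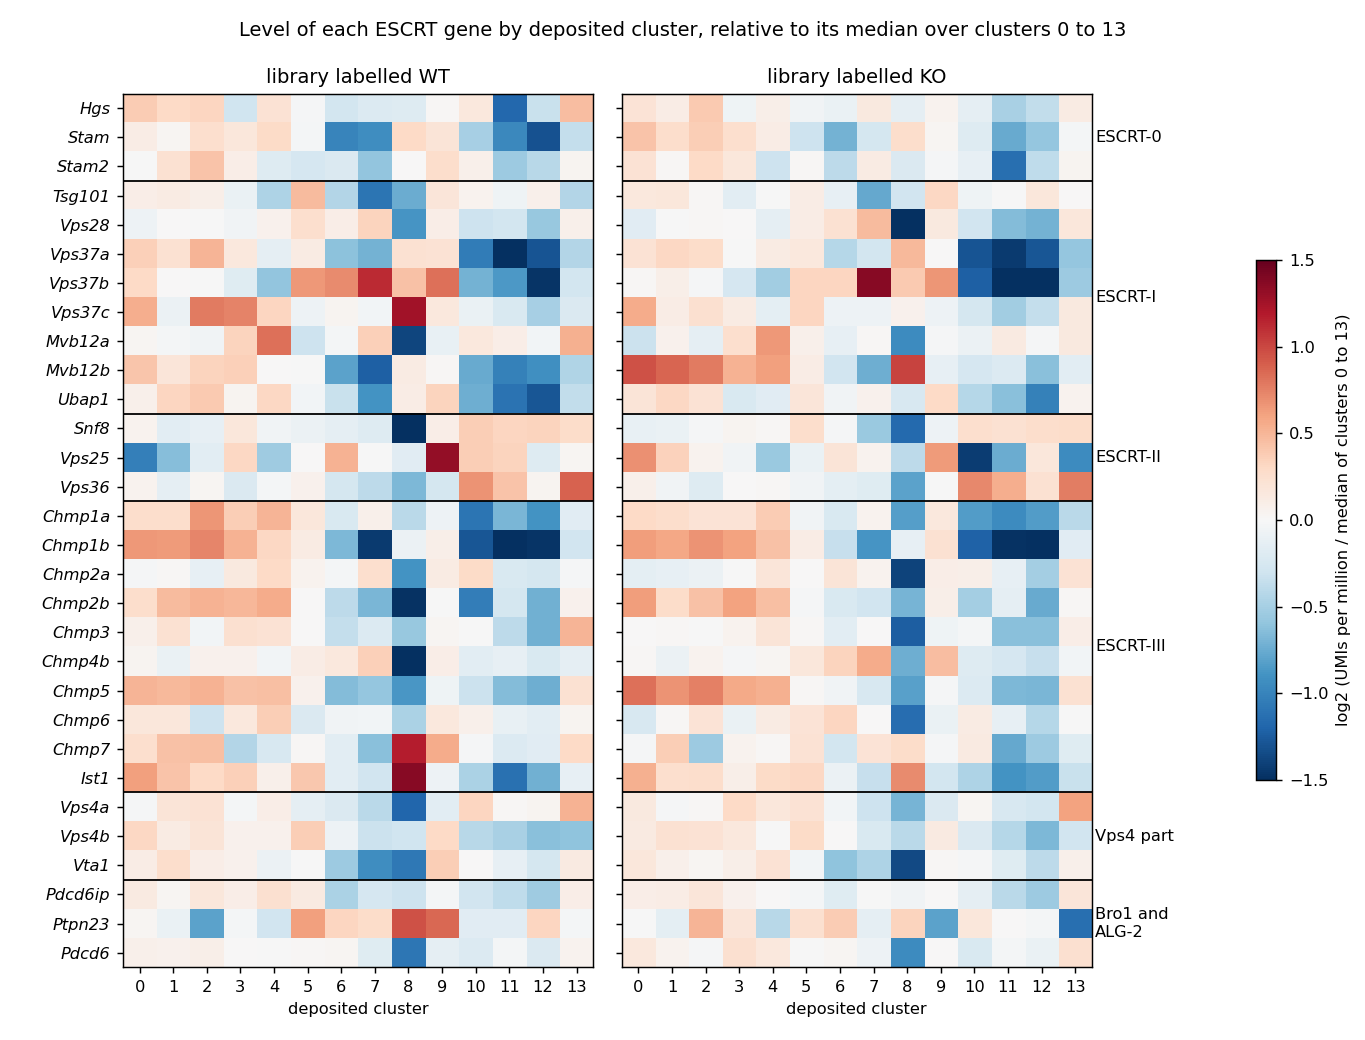
Level of each of the 30 ESCRT genes (rows, by complex) in deposited clusters 0 to 13 (columns) of each library, as log2 of CPM over the gene's own median of those clusters. Chmp1b, Chmp5 and Mvb12b are above their medians in clusters 0 to 4, Vps37b is highest in cluster 7, and Vps36 is highest in clusters 10, 11 and 13 in both libraries.

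Cluster 8, marked by Lars2, stood apart with a median of 955.5 and 1199.5 UMIs per cell and 18.6% and 15.7% of mitochondrial UMIs. There 14 of the 30 genes were at least 1.5-fold lower than in the Rag1 clusters in both libraries (15.8% of all genes) and 0 were higher (18.9%), with summed levels of 1425 and 1458, and the part of RNA quality in this was not tested. In cluster 15, marked by Cd74, Mvb12a was the 1 member higher than in the Rag1 clusters in both libraries (12.8% of all genes) and 10 were lower (26.0%). Its 6 B cell markers summed to 4874 in WT and 40904 in KO, so that its makeup differed between the libraries.

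Genes around the machinery were read from a list of 39 that holds cargo ubiquitin ligases, deubiquitinases, early adaptors, arrestin-domain genes, factors of the midbody and nuclear envelope and tetraspanins of exosomes. In the KO over WT comparison, 0 of 34 measured were past the fold either way in the Rag1 clusters, 1 was higher and 1 lower of 34 in the Cd5, 4 higher and 1 lower of 33 in the Itm2a, 7 higher and 2 lower of 33 in the Ms4a4b and 1 higher and 0 lower of 35 in the proliferating clusters. The share of all genes past the fold was 11.3% upwards and 4.95% downwards in the Itm2a and 21.0% and 5.55% in the Ms4a4b cluster, so that the counts of higher genes were near it there. It was 5.80% and 2.57% in the Rag1, 7.02% and 3.56% in the Cd5 and 5.28% and 3.40% in the proliferating clusters. These genes were counted on the totals, and with TMM the share of all genes higher in the Ms4a4b cluster was 9.48%. The 7 of the Ms4a4b cluster were the ligases Nedd4l, Wwp1 and Wwp2, the adaptors Tollip and Gga1, the arrestin-domain gene Arrdc1 and Cc2d1a, and Pik3r4 and the tetraspanin Cd81 were lower. Wwp1 stood at 14.2 in WT and 37.5 in KO there (log2 ratio 1.39, 0.81 to 2.03), and Nedd4l at 12.02 and 26.03 (1.10, 0.44 to 1.82). In the Itm2a cluster Brox, a Bro1-domain gene, had 16.4 and 35.1 (1.09, 0.55 to 1.66).

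Along the groups, the tetraspanins Cd9 and Cd82 had the widest course with the SP cells. Cd9 had 1.84 in WT and 1.95 in KO in the Rag1 clusters and 55.8 and 76.8 in the Ms4a4b cluster, and Cd82 had 9.11 and 11.8, and 61.0 and 55.6. Cbl, a ligase that tags the T cell receptor for degradation, ran from 546 and 558 to 133 and 189, whereas its relative Cblb ran from 17.5 and 21.0 to 50.2 and 53.4. Cep55, which brings ESCRT to the midbody, was counted at 66.8 and 61.3 in the proliferating clusters and from 4 and 3 UMIs in the Rag1 clusters. The ESCRT paralogues Vps37d, Ubap1l and Chmp4c had 8, 14 and 3 UMIs in the whole matrix.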

How the data were processed

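Libraries of 3′ ends (10x Chromium) from whole thymus, 1 per genotype, were processed by the authors with Cell Ranger 3.0.2, STAR and Seurat on mm10, per the submitters' processing notes. They kept cells of 200 to 6000 genes and up to 50000 reads. The deposited matrix holds UMI counts without normalization for 20282 genes and 13683 cells. The deposited table of cells gives totals, cluster numbers at resolutions 1.5 (used here), 1.8 and 2, and a mitochondrial percent that is 0 in every cell and was replaced by the percent computed from the counts. Columns of other samples numbered 0. Doublets were not removed, and the alternative without the 5% of cells with most UMIs bears on them.

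UMIs were summed per cluster group and library (Python 3.11.15, pandas 2.3.3) and divided by their total. Log2 ratios were taken after 0.5 was added to each sum, for genes with at least 20 UMIs over both libraries. Exact 95% intervals (scipy 1.17.1) were Poisson for levels and conditional binomial for ratios. They cover counting error only. No test was made, as each condition is 1 library, and the computation was tested on simulated data. Precision follows the UMIs per gene. TMM factors came from edgeR 4.0.16 and size factors from DESeq2 1.42.0. Positions came from GENCODE vM21, in which 19797 of the gene names were found, and promoters from RefSeq. The annotation used for counting is not given in the sources used here.

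All members were named, in full those past 1.5-fold, at an extreme of a comparison or in a pair of paralogues. Members and lists were chosen with earlier results of these data known. Alternatives were other scalings, means over cells, filters on cells and UMIs, folds and cluster resolutions.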

Additional observations from a re-analysis of the deposited data

Results flagged for a closer look

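Ubap1 was above 0 in the Ms4a4b cluster, with a KO over WT log2 ratio of 0.81, and below 0 in the Rag1 clusters, with -0.26, so that its direction differed between mature SP and DP cells. It was the 1 member whose counting intervals lay on opposite sides of 0 in these cluster groups, on the totals. Relative to the median of all genes the interval in the Ms4a4b cluster was -0.07 to 1.26 and held 0. The difference between both ratios was not tested, since each condition is 1 library.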

How the results depend on the processing

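A ratio was taken to have stayed where it differed from the main one by no more than its counting error. A count stayed where it changed by no more than 1.5 times. Of 318 summary values under alternative settings 273 stayed and 45 moved. Single genes were followed only where they were past the fold of 1.5 in the main setting, so that a reversal was hardly possible. Of their 305 values 279 stayed, 26 moved and 0 reversed, which says nothing of members under the fold. In the SP clusters the sums moved with the scaling. The log2 ratio of summed ESCRT UMIs under totals free of ribosomal and mitochondrial genes, under TMM and under DESeq2 was 0.0948, 0.0404 and 0.0414 in the Itm2a cluster and 0.0356, -0.0507 and -0.0121 in the Ms4a4b cluster, and with TMM and DESeq2 0.0032 and -0.0019 in the Rag1 clusters. With clusters at resolutions 1.8 and 2 it was 0.0920 each time in the Itm2a cluster, which then held 173 and 186 cells. Higher members of the Ms4a4b cluster numbered 3 without ribosomal and mitochondrial genes (12.4% of all genes), 1 with TMM (9.48%), 2 with DESeq2 (10.8%) and 2 with a minimum of 100 UMIs (15.1%). Lower ones numbered 2 with TMM (11.3%), 2 with DESeq2 (9.95%), 2 by the mean over cells (6.94%) and 0 without the 5% of cells with most UMIs (5.71%). In the Cd5 clusters the mean over cells gave a relative median of -0.10. There 0 members were lower by that mean (3.88% of all genes), without cells of over 10% mitochondrial UMIs (3.60%) and with a minimum of 100 UMIs (0.420%). Past a fold of 5/4, members higher and lower in KO were 2 and 1 in the Rag1 clusters (14.8% and 6.51% of all genes). They were 9 and 1 in the Itm2a (30% and 11.4%) and 12 and 2 in the Ms4a4b cluster (42.6% and 11.5%). In the proliferating clusters they were 1 and 1 (13.3% and 8.23%), with 1 higher in the Cd5 clusters (18.2%). Over the Rag1 clusters that fold gave 1 higher and 3 lower in the Cd5 (14.9% and 19.6% of all genes) and 2 higher in the Itm2a clusters (20.2%). It gave 3 higher and 11 lower in the Ms4a4b (16.2% and 36.9%) and 1 higher in the proliferating clusters (22.2%). Members higher in the Ms4a4b over the Rag1 clusters were 3 under each of the 3 scalings (15.1%, 14.5% and 14.7% of all genes). Those of the proliferating clusters were 2 higher and 6 lower with TMM (23.0% and 24.3%) and 2 higher and 5 lower with DESeq2 (23.9% and 23.1%). Without the 5% of cells with most UMIs 1 was higher there (12.9%). Leaving out cells with shared barcodes and taking clusters 10 to 13 as proliferating were chosen after the data were seen. Neither moved the summed ratios by more than their counting error or any count of members past the fold by over 1.5 times, but with clusters 10 to 13 the members' median over the Rag1 clusters, relative to all genes, went from 0.10 to 0.02 in WT and from 0.06 to -0.03 in KO. The cause of other changes than those of scaling was not tested. No paired analysis was possible because each condition has 1 library and the labels give no replicate numbers. In the SP clusters the intervals of many members spanned more than a fold of 1.5, among them Vps25, Vps37c and Ptpn23, with the fewest UMIs. So did those of all members past the fold in the Ms4a4b cluster, namely Stam, Stam2, Vps37a, Ubap1, Chmp1b, Chmp7 and Mvb12a.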
